A study of Mus musculus with 3 samples.

Results

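The genes described here are the 10 that make, sense and restrain the Nodal signal, out of 32285 genes counted in the series. They were taken from a fixed list: the ligands Nodal and Gdf3, the co-receptors Tdgf1 (Cripto) and Cfc1 (Cryptic), the receptors Acvr1b (ALK4) and Acvr2b, the convertases Furin and Pcsk6, and the antagonists Lefty1 and Lefty2. Each was measured in single cells of mouse embryonic stem cell aggregates, which model the epiblast (Epi) and the visceral endoderm (VE) around the time of implantation. A cell was called VE when its UMIs of Gata6, Sox17, Dab2 and Cubn together exceeded those of Pou5f1, Sox2, Nanog and Fgf4, and Epi otherwise. A UMI is a unique molecular identifier, a tag that marks 1 captured mRNA molecule.

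Nodal is a secreted growth factor of the TGF-β superfamily. It is made as a precursor that proprotein convertases cut, and it signals through type I and type II activin receptors only where an EGF-CFC co-receptor is present. Nodal signaling switches on Nodal itself and also the Lefty genes, whose secreted products bind the ligand or the co-receptor and hold the signal back. In the mouse embryo this pathway keeps the epiblast pluripotent, patterns the VE into an anterior domain (AVE), and later drives the primitive streak.

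BELAs are bilayered aggregates in which a VE layer encloses an Epi core. They grew from clone C6 of E14tg2a stem cells that carry a doxycycline-inducible GATA4-mCherry transgene. These cells received 0.5 µg/ml doxycycline for 8 h in 2i and LIF, spent 16 h in N2B27 and another 3 days in N2B27 on gelatin. VE cysts came from the same clone, but doxycycline was kept on during the 16 h in N2B27, and 10 ng/ml FGF4 with 1 µg/ml heparin was present from then to the end of the 3 days. Structures with a visible Epi-like core were left out when VE cysts were picked, so picking bears on how many Epi cells that library holds. Epi cysts grew from stem cells of the inducible line in matrigel, for 1 day in 2i and LIF and 3 days in N2B27. Their label gives neither a clone nor doxycycline. All 3 conditions thus share the parental line, and BELAs and VE cysts rest on 1 clone.

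There was 1 library for each condition. Levels therefore have no replicate error, no test between conditions was possible, and every interval below is a 95% interval that covers counting error only. Intervals of levels and ratios leave out the spread between cells. Levels whose intervals do not overlap therefore need not differ beyond that spread. Cells were kept if they held 4000 genes or more and no more than 10% of mitochondrial UMIs, which left 2692: 542 BELA VE, 577 VE cyst VE, 48 VE cyst Epi, 868 BELA Epi and 656 Epi cyst Epi cells, and 1 Epi cyst cell that was called VE and is not described further. Median depth lay between 56914 UMIs per cell (VE cyst VE) and 90251 (BELA VE). No kept cell shared its barcode with a kept cell of another library. All 7 of 7 further VE genes that did not enter the rule (Amn, Lrp2, Hnf4a, Foxa2, Sox7, Apoe and Ttr) were at least 2-fold higher in BELA VE than in BELA Epi cells, whereas 7 further Epi genes did not mark the Epi lineage as a list, with 2 higher and 2 lower. Of all genes compared, 13.8% were higher and 8.92% lower. Neural, germ cell, trophoblast, blood and endothelial, and fibroblast genes (4 of each) summed to at most 40.7 CPM in any group, where CPM is the UMIs of a gene for every 1000000 UMIs of the group.

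The stretch of 250 bases before the annotated start is shown for the ligand Nodal and for both co-receptors, since the co-receptors divide the lineages below. The sequences are from RefSeq for build GRCm38.p6, and 7 of the 10 genes had an entry. They are printed 5′ to 3′ on the strand of the gene. Capitals mark, on either strand, the letters AATNNACA (FOXH1), CAGAC that SMAD proteins bind, AGATAA that GATA factors bind, and the octamer ATGCAAAT. The FOXH1 letters are a loose pattern in which N is any base, so a match need not be a site that FOXH1 binds. Nodal lies at chr10:61417722-61417971 on the + strand, Tdgf1 at chr9:110946159-110946408 on the - strand, and Cfc1 at chr1:34535398-34535647 on the + strand.
Nodal: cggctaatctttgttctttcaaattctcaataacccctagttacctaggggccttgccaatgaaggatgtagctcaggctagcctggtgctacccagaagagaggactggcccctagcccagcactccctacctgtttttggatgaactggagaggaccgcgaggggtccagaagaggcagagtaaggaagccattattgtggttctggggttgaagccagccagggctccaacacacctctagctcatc
Tdgf1: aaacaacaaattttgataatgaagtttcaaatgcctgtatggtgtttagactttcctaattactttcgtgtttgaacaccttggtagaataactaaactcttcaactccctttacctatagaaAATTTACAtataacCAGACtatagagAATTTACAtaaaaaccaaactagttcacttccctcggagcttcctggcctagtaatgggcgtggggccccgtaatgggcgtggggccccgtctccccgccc
Cfc1: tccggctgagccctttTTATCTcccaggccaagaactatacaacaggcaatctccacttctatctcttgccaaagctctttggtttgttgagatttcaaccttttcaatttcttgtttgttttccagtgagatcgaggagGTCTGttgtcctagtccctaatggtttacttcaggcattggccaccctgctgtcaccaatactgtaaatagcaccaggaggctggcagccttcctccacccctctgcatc
The Tdgf1 stretch held the FOXH1 letters at 2 places, beginning 127 and 101 bases before the start, with the SMAD letters between them at 113 bases. Of 32851 such windows of all annotated genes, 10.9% held the FOXH1 letters at least once and 1.12% at 2 or more places. The Cfc1 stretch held the GATA letters (9.99% of windows) 234 bases and the SMAD letters (42.2% of windows) 110 bases before the start. None of the 4 motifs, the octamer (1.60% of windows) included, was in the Nodal stretch. These matches are letters in a window, and binding was not measured.

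Nodal, the principal ligand, was transcribed in both layers of BELAs but hardly in VE cells that grew alone. Its level was 22.0 CPM (20.7 to 23.3) in BELA VE, 1.16 CPM (0.829 to 1.57) in VE cyst VE, 65.5 CPM (58.1 to 73.6) in VE cyst Epi, 34.4 CPM (33.0 to 35.7) in BELA Epi and 30.2 CPM (28.5 to 31.9) in Epi cyst Epi cells. No 2 neighbours in this order of levels overlapped in their intervals. When each cell was thinned at random to 40000 UMIs, so that depth was equal, a Nodal UMI was found in 36.2% (32.0 to 40.5%) of BELA VE cells and 4.44% (2.77 to 6.71%) of VE cyst VE cells. The unthinned shares were 50.9% and 6.59%. Among Epi cells the thinned shares were 75% in VE cysts, 59.7% in BELAs and 41.9% in Epi cysts (unthinned 83.3%, 72.1% and 48.0%). The BELA and Epi cyst levels of Nodal were thus close, while the share of positive cells was lower in Epi cysts.

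Gdf3, a related ligand known from pluripotent cells, was confined much more to the Epi lineage than Nodal. It stood at 2.00 CPM in BELA VE and 0.0282 CPM in VE cyst VE cells, where it rested on 1 UMI. The Epi groups held 35.5 CPM (VE cysts), 33.4 CPM (BELAs) and 29.2 CPM (Epi cysts), and the intervals of the VE cyst and BELA cells overlapped. Gdf3 was found in 3.50% of thinned BELA VE cells and in 0 of 473 VE cyst VE cells, which allows a UMI in up to 0.634% of cells at this depth and sets no limit on expression below it. In the Epi groups the shares were 52.3%, 55.3% and 49.7% in the same order as the levels. The other ligands of the family, Gdf1 and the activin and inhibin subunit genes Inhba, Inhbb and Inha, did not pass 0.930 CPM in any group. Gdf1 had no UMI in any of them, and its 1771 annotated bases lie wholly within the gene Cers1.

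The co-receptors divided the lineages. Tdgf1 was an Epi gene, with 5.26 CPM in BELA VE and 0.507 CPM in VE cyst VE cells, against 137 CPM (126 to 149) in VE cyst Epi, 102 CPM (99.4 to 104) in BELA Epi and 26.3 CPM (24.7 to 27.9) in Epi cyst Epi cells. Cfc1, the paralog that is known to act in left-right patterning, was a VE gene with 11.8 CPM (10.9 to 12.7) in BELA VE and 9.02 CPM (8.06 to 10.1) in VE cyst VE cells. It stood at 1.16 CPM in VE cyst Epi, 1.59 CPM in BELA Epi and 0.538 CPM in Epi cyst Epi cells. Neighbours in the order of Tdgf1 levels did not overlap, and for Cfc1 each of the 3 Epi groups overlapped with the next.

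At 40000 UMIs per cell, Tdgf1 was found in 75% of VE cyst Epi, 73.9% of BELA Epi and 27.4% of Epi cyst Epi cells, and Cfc1 in 17.5% of BELA VE and 16.1% of VE cyst VE cells. The unthinned shares were 81.3%, 80% and 30.6% for Tdgf1 and 26.0% and 22.7% for Cfc1. Only 1 of 514 BELA VE cells held UMIs of both. A UMI of at least 1 co-receptor was seen in 23.3% (19.8 to 27.2%) of BELA VE and 16.7% (13.5 to 20.4%) of VE cyst VE cells, and in 75%, 75.4% and 29.1% of the Epi cells of VE cysts, BELAs and Epi cysts.

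Part of the low Tdgf1 and Gdf3 signal in BELA VE cells sat in a few cells with Epi transcripts. In 30 of 514 thinned BELA VE cells the Epi markers made up over 10% of the marker UMIs. Tdgf1 stood at 58.3 CPM in these cells and 0.826 CPM in the other 484, and Gdf3 at 10.0 and 0.620 CPM. Lefty1 stood at 20.0 and 8.37 CPM and Nodal at 30.0 and 19.6 CPM, so most of the Nodal and Lefty1 signal remained in the 484 cells. Scrublet, a doublet caller, marked 22 BELA VE cells and 9 BELA Epi cells of the 1410 in that library. Whether the 30 cells were doublets was not tested.

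Free RNA in a droplet library also puts UMIs into cells that do not express a gene. The 7 further Epi genes stood in BELA VE cells at 9.51 to 449% of their BELA Epi level (median 52.8%). The lowest of them, the amino acid transporter gene Slc7a3, was chosen for comparison after its values were seen. It was found in 11.3% of thinned BELA VE cells, against 80.8% of thinned BELA Epi cells (unthinned 17.5% and 87.0%). Tdgf1 stood at 5.17% of its Epi level in BELA VE, Gdf3 at 5.98% and Lefty2 at 1.28%, all below Slc7a3, so these levels in VE cells are not read as expression. The part of free RNA and of the 30 cells in them was not tested. Lefty1 stood at 15.9% and Nodal at 63.9%. In VE cyst VE cells Slc7a3 was found in 4.02% (unthinned 5.20%), beside 4.44% for Nodal and 5.71% for Lefty1. In the opposite direction, the further VE genes stood in BELA Epi cells at 0.526 to 14.0% of their VE level (median 1.19%), and Cfc1 at 13.5%, within that range. The VE gene Amn, which encodes amnionless, was found in 31.1% of thinned BELA Epi cells and Cfc1 in 6.12% (unthinned 50.3% and 10.6%), and whether Epi cells express Cfc1 or hold free RNA was not tested.

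The receptors were found in both lineages. Acvr1b, the type I receptor kinase, stood at 8.51 CPM in BELA VE and 11.8 CPM in VE cyst VE cells, and at 3.95, 6.20 and 5.55 CPM in the Epi cells of VE cysts, BELAs and Epi cysts, where neighbouring intervals overlapped. Acvr2b, the type II receptor that binds the ligand, was the more uneven of the pair, with 15.4 CPM in BELA VE, 25.6 CPM in VE cyst VE, 43.9 CPM in VE cyst Epi, 54.4 CPM in BELA Epi and 64.5 CPM in Epi cyst Epi cells. None of these 5 levels overlapped with its neighbour. Acvr2b was found in 87.3% of thinned BELA Epi and 89.9% of thinned Epi cyst Epi cells (unthinned 96.0% and 93.8%), the highest shares of the 10 genes. UMIs of Acvr1b, of a type II receptor (Acvr2a or Acvr2b) and of a co-receptor met in 3.89% of BELA VE, 4.65% of VE cyst VE, 15.9% of VE cyst Epi, 16.2% of BELA Epi and 6.42% of Epi cyst Epi cells. At this depth a missing UMI does not show that a receptor was absent.

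Of the convertases, Furin varied little and Pcsk6 (PACE4) stood out in 1 group. Furin stood at 14.4 CPM in BELA VE and 15.7 CPM in VE cyst VE cells, with overlapping intervals, and at 5.81, 9.62 and 8.44 CPM in the Epi cells of VE cysts, BELAs and Epi cysts. Pcsk6 stood at 4.0 CPM (3.49 to 4.57) in BELA VE cells but at 14.6 CPM (13.3 to 15.9) in VE cyst VE cells, and between 2.76 and 3.72 CPM in the Epi groups, whose intervals overlapped from one to the next. A Pcsk6 UMI was found in 14.0% of thinned BELA VE and 35.9% of thinned VE cyst VE cells (unthinned 29.9% and 43.8%). Of 4 other convertases of the family, 1 was at least 2-fold higher in BELA VE than in BELA Epi cells and none lower. Of all genes, 13.8% were higher and 8.92% lower. The 1 higher convertase was Pcsk5, which stood at 5.61 CPM in BELA VE and 0.236 CPM in BELA Epi cells. Pcsk2, a convertase of neuroendocrine cells, stood at 0.238 and 5.09 CPM, just short of the threshold with a log2 ratio of -0.95 after adding 5 CPM to each level.

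The Lefty antagonists were highest in the Epi cells of VE cysts. Lefty1 stood at 9.04 CPM (8.26 to 9.88) in BELA VE, 2.11 CPM (1.66 to 2.65) in VE cyst VE, 256 CPM (241 to 271) in VE cyst Epi, 56.9 CPM (55.2 to 58.7) in BELA Epi and 38.8 CPM (37.0 to 40.8) in Epi cyst Epi cells. No neighbours overlapped. Lefty2 was almost limited to Epi cells, with 24.8 CPM in those of VE cysts, 7.18 CPM in those of BELAs and 5.92 CPM in those of Epi cysts, the last 2 of which overlapped. It had 5 UMIs in all BELA VE cells and 2 in all VE cyst VE cells.

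Lefty1 was found in 14.0% of thinned BELA VE, 5.71% of VE cyst VE, 68.2% of VE cyst Epi, 45.8% of BELA Epi and 26.0% of Epi cyst Epi cells (unthinned 21.2%, 10.6%, 72.9%, 57.0% and 28.2%). Lefty1 and Lefty2 are neighbours on chromosome 1, at positions 180935022 to 180938400 and 180893108 to 180899103 of GRCm38. Their main transcripts share a run of 140 bases at most, but no run longer than 8 in their last 500 bases, the end that this chemistry reads. The plot of levels shows all 10 genes in the 5 groups.

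**Figure D1:**
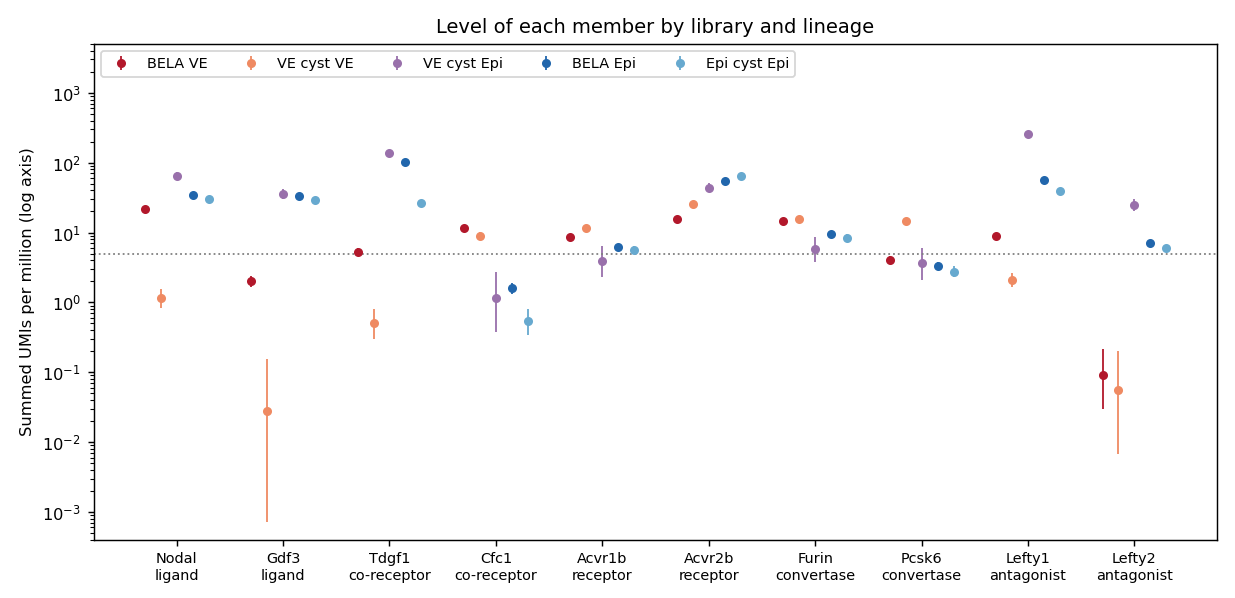
Level of each gene in CPM on a log axis, in BELA VE, VE cyst VE, VE cyst Epi, BELA Epi and Epi cyst Epi cells. Points are levels from summed UMIs, bars exact Poisson 95% intervals and the dotted line the 5 CPM added before a ratio was called. Nodal is the highest member in BELA VE cells at 22.0 CPM, and Cfc1 and Furin are higher in both VE groups than in any Epi group.

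Ratios between groups were called at 2-fold after adding 5 CPM to each level, which keeps genes of few UMIs from being called. A gene below 5 CPM in both groups cannot pass, and counts of called genes are read against the share of all genes with at least 5 CPM in either group that passed. These shares are descriptions of pairs of libraries or of cells of 1 library.

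VE cells of BELAs and of VE cysts differed in their ligand and in a convertase. Nodal was 19.0-fold (13.9 to 26.6) higher in BELA VE cells, with a log2 ratio of 2.13 after adding 5 CPM, and Pcsk6 was 3.64-fold (3.10 to 4.29) lower, with a log2 ratio of -1.12. These were the calls among the 8 members that reached 5 CPM in at least 1 of the groups, 1 higher where 1.62% of all genes were, and 1 lower where 2.93% were. Lefty1 and Tdgf1 lay just short of the threshold with log2 ratios of 0.98 and 0.90 (plain ratios 4.28 and 10.4). Gdf3 had a plain ratio of 71.0 (12.5 to 2828) from 109 UMIs against 1. The Tdgf1 and Gdf3 levels of BELA VE cells are not read as expression, as stated above. Their ratios are therefore not read as a difference between VE cells. The median log2 ratio over genes with at least 10 CPM in both groups was -0.11. Scaling that median to 0 gave 2 members higher and 1 lower, and totals without mitochondrial and ribosomal protein genes gave 3 higher and 1 lower. With 20 CPM added neither call was left (Nodal 0.99, Pcsk6 -0.53).

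The remaining members differed less between VE cells of the 2 aggregates. The ratio of BELA VE over VE cyst VE was 1.31 (1.14 to 1.5) for Cfc1, 0.723 (0.632 to 0.827) for Acvr1b and 0.602 (0.548 to 0.662) for Acvr2b. For Furin it was 0.919 (0.823 to 1.03), an interval that holds 1. So Nodal, but not its receptors or Furin, stood higher in VE cells of BELAs than in those of VE cysts. The Epi core, FGF4 with heparin and the longer doxycycline cannot be told apart here.

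Within the BELA library, Nodal itself did not pass 2-fold between the VE layer and the Epi core, whereas Gdf3, both co-receptors, Acvr2b and both Lefty genes did. Cfc1 was 7.38-fold (6.05 to 9.09) higher in VE cells, and Gdf3, Tdgf1, Acvr2b, Lefty1 and Lefty2 were lower by factors of 16.7, 19.3, 3.52, 6.29 and 78.3. The factor of Lefty2 rests on 5 UMIs in VE cells (33.3 to 242). Those of Gdf3, Tdgf1 and Lefty2 rest on VE levels that are not read as expression. They are therefore not read as the size of a lineage difference. Of the 9 members with 5 CPM or more in at least 1 lineage, 1 was at least 2-fold higher and 5 lower, where 13.8% of all genes were higher and 8.92% lower. Nodal (ratio 0.639), Acvr1b (1.37), Furin (1.5) and Pcsk6 (1.21) did not pass 2-fold. In the VE cyst library, VE over Epi cells gave the same direction for each of these 6 genes: Cfc1 was 7.77-fold (3.29 to 24.1) higher, and Gdf3, Tdgf1, Lefty1 and Lefty2 fell past 2-fold, while Acvr2b at a ratio of 0.584 did not. There Pcsk6 was also called higher (3.92-fold, 2.39 to 6.91) and Nodal lower (56.7-fold, 40.7 to 80.7), so that 2 of 10 were higher (background 20%) and 5 lower (background 11.7%).

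Between Epi cells of BELAs and of Epi cysts, Tdgf1 stood alone. It was 3.87-fold (3.63 to 4.13) higher in BELA Epi cells, the 1 call among the 8 members that reached 5 CPM on either side, where 1.25% of all genes were higher and 1.34% lower. Nodal and Gdf3 differed by ratios of 1.14 and 1.15, Lefty1 by 1.46 (1.38 to 1.55) and Lefty2 by 1.21 (1.04 to 1.42). Acvr2b stood slightly lower at a ratio of 0.844 (0.803 to 0.887). Hence ligands, receptors and convertases stood at nearly equal levels in Epi cells of BELAs and of Epi cysts, and the Epi co-receptor did not. The VE layer, the matrigel, the inducer and the mix of cell states cannot be told apart here.

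The 48 Epi cells of VE cysts, which had been kept in FGF4, were higher in the antagonists. Lefty1 was 4.49-fold (4.2 to 4.80) and Lefty2 3.46-fold (2.78 to 4.27) higher than in BELA Epi cells, 2 of the 8 members that reached 5 CPM on either side, where 0.672% of all genes were at least 2-fold higher. Against Epi cyst Epi cells, 4 of 8 such members were called higher, where 0.714% of genes were: Nodal by 2.17-fold, Tdgf1 by 5.22-fold, Lefty1 by 6.58-fold and Lefty2 by 4.2-fold. No member was at least 2-fold lower in either comparison, where 0.620% and 0.598% of genes were. Picking, the inducer, FGF4 and the small number of cells cannot be told apart here.

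**Figure D2:**
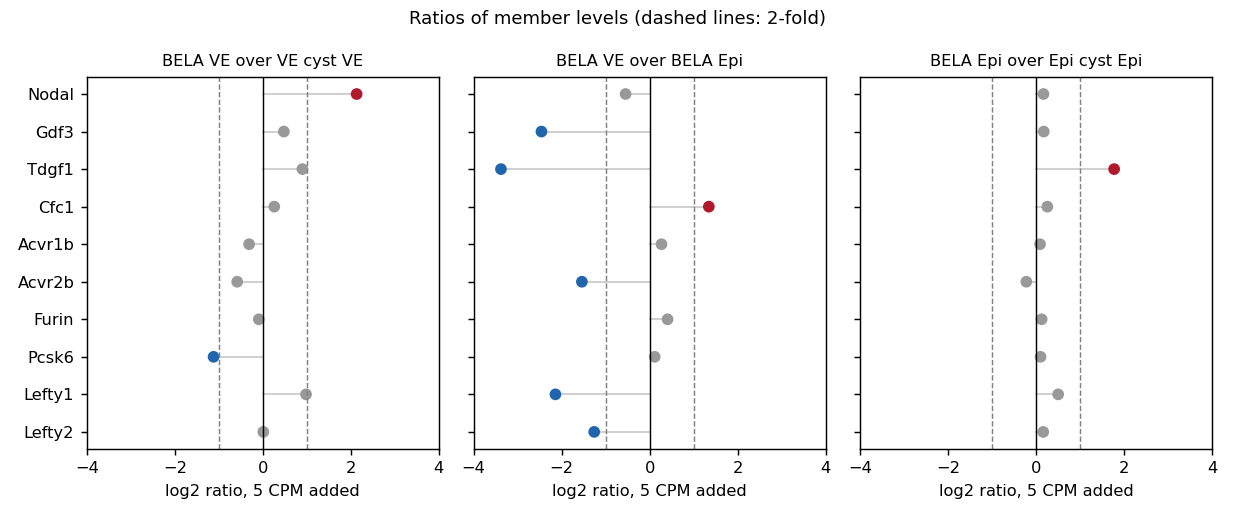
Log2 ratio of each gene after adding 5 CPM, for BELA VE over VE cyst VE, BELA VE over BELA Epi and BELA Epi over Epi cyst Epi cells, with dashed lines at 2-fold, red points for genes called higher and blue for genes called lower. Nodal (2.13) and Pcsk6 (-1.12) pass in the first panel, Cfc1 and 5 lower genes in the second and Tdgf1 (1.77) in the third.

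Single cells of 1 group differed far more in some members than in others. The Fano factor, the variance over the mean of thinned UMIs, is 1 when cells differ by sampling alone, and is given as the median of 20 rounds of thinning. Lefty1 had 6.41 in BELA VE, 1.52 in VE cyst VE, 23.9 in VE cyst Epi, 12.6 in BELA Epi and 19.2 in Epi cyst Epi cells. Where cells differ, this factor also rises with the mean, so it does not rank groups or genes of unlike level. The variance over the squared mean, which sampling raises at low means, gave Lefty1 another order in a single round of thinning. It was 19.9 in BELA VE, 27.7 in VE cyst VE, 2.41 in VE cyst Epi, 5.53 in BELA Epi and 11.4 in Epi cyst Epi cells. The Fano factor of Tdgf1 was 5.45, 9.09 and 6.43 in the Epi cells of VE cysts, BELAs and Epi cysts. Cfc1 had Fano factors of 6.14 and 8.03 in BELA and VE cyst VE cells, Nodal between 1.05 and 4.31, and Pcsk6 had 1.15 in BELA VE cells against 3.09 in VE cyst VE cells. The receptors and Furin stayed near sampling, with values between 1.03 and 1.32 in the BELA VE, VE cyst VE, BELA Epi and Epi cyst Epi cells.

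Most Lefty1 molecules came from a minority of cells. The tenth of cells with the most Lefty1 held 89.2% of its thinned UMIs in BELA VE, 51.2% in VE cyst Epi, 64.0% in BELA Epi and 85.3% in Epi cyst Epi cells. This share also rises as the level falls, because few cells then hold any UMI. It therefore does not rank groups of unlike level. The median cell held 4 Lefty1 UMIs in VE cyst Epi cells and 0 in BELA Epi and Epi cyst Epi cells, while the highest cells held 79, 65 and 65. The tenth with the most Tdgf1 held 44.9% of its UMIs in BELA Epi and 73.9% in Epi cyst Epi cells. Tdgf1 UMIs thus came from a smaller share of cells in Epi cysts than in BELAs, at a lower level.

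Nodal and Lefty1 varied together across cells in all groups but the VE cells of VE cysts. Pearson's r of log(1 + thinned UMIs), as the median over 20 rounds of thinning, was 0.38 (0.29 to 0.42 over the rounds) in 514 BELA VE cells, 0.38 (0.21 to 0.59) in 44 VE cyst Epi cells, 0.35 (0.32 to 0.39) in 801 BELA Epi cells and 0.40 (0.38 to 0.43) in 592 Epi cyst Epi cells. In 473 VE cyst VE cells, of which 21 had a Nodal UMI and 27 a Lefty1 UMI, it was 0.06 (-0.02 to 0.17). A Lefty1 UMI was found in 24.7% of Nodal-positive and 7.93% of Nodal-negative BELA VE cells. The same shares were 78.8% and 36.4% in VE cyst Epi, 54.4% and 33.1% in BELA Epi, and 47.2% and 10.8% in Epi cyst Epi cells. Both UMIs were thus more frequent in the same cells, although in each group a part of the Nodal-positive cells held no Lefty1 UMI at this depth. These correlations describe cells of 1 library, which share their free RNA, and they are given with no p.

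Other pairs differed between the Epi groups in how they ran. Nodal with Tdgf1 had an r of 0.16 (0.13 to 0.20) in BELA Epi and 0.47 (0.45 to 0.49) in Epi cyst Epi cells, and Tdgf1 was found in 77.2% of Nodal-positive and 69.0% of Nodal-negative BELA Epi cells, against 49.2% and 11.6% in Epi cyst Epi cells. Lefty1 with Lefty2 had 0.28 in BELA Epi and 0.48 in Epi cyst Epi cells, and Nodal with Lefty2 had 0.17 and 0.30. In BELA VE cells Nodal also ran with Cfc1 (0.31, 0.26 to 0.36), which was found in 28.5% of Nodal-positive and 11.3% of Nodal-negative cells. Without the BELA VE cells of over 10% Epi markers, the r of Nodal with Tdgf1 there was -0.05 in place of 0.08.

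Most pairs of the 10 genes did not covary. With at least 10 positive cells required for both genes, r lay within 0.1 of 0 in 27 of 36 pairs in BELA VE, 20 of 21 in VE cyst VE, 38 of 45 in BELA Epi and 35 of 45 in Epi cyst Epi cells. It was over 0.3 in 3, 0, 1 and 6 of these pairs in the same order. Receptors and convertases were in none of the pairs over 0.3. In Epi cyst Epi cells all 6 pairs that Nodal, Tdgf1, Lefty1 and Lefty2 can form passed 0.3, from 0.30 to 0.48, whereas in BELA Epi cells Nodal with Lefty1 alone did.

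**Figure D3:**
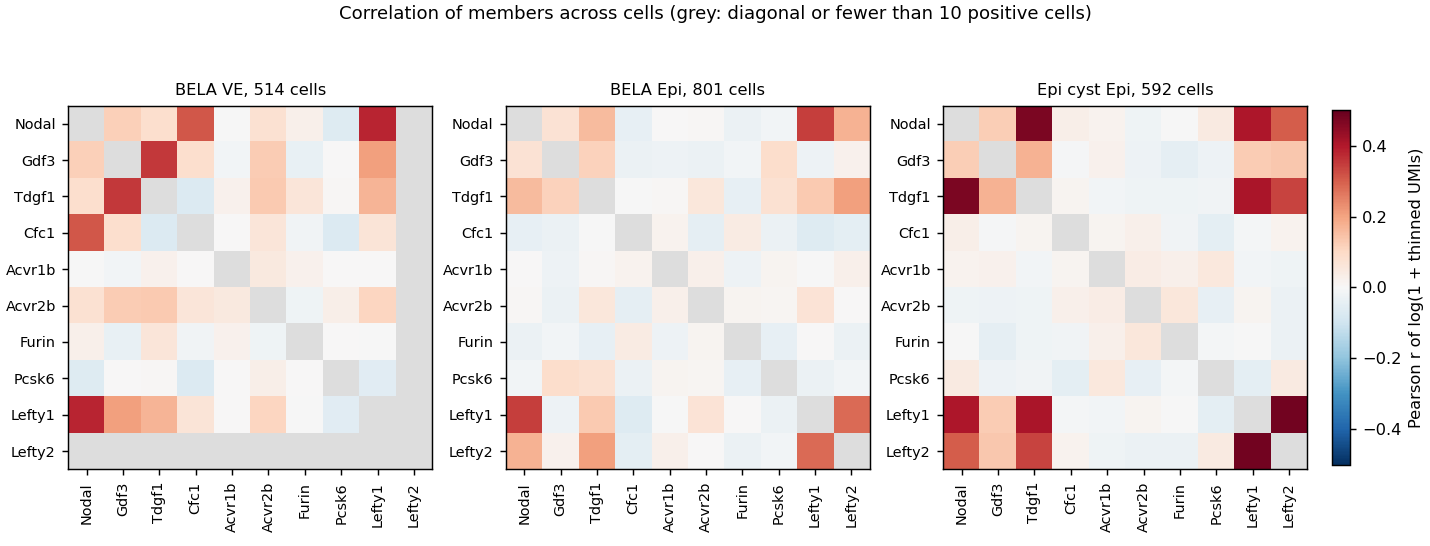
Pearson correlation of log(1 + thinned UMIs) between each pair of the 10 genes across 514 BELA VE, 801 BELA Epi and 592 Epi cyst Epi cells (blue below 0, red above 0), with grey for the diagonal and for genes with fewer than 10 positive cells. The block of Nodal, Tdgf1, Lefty1 and Lefty2 is red in Epi cysts, up to 0.48 for Lefty1 with Lefty2, and in BELA Epi cells the reddest pair is Nodal with Lefty1 at 0.35.

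The relation to Nodal was graded when cells were grouped by Nodal UMIs (0, 1 to 2, 3 to 5, and 6 or more). In BELA Epi cells Lefty1 stood at 30.0, 62.7, 88.7 and 167 CPM in these bins, of 323, 337, 113 and 28 cells. In Epi cyst Epi cells it stood at 9.88, 60.2, 111 and 182 CPM, in bins of 344, 149, 72 and 27 cells. Levels of Lefty1 at the same Nodal count were thus close in the upper bins and differed most in cells with no Nodal UMI.

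Tdgf1 differed between the 2 aggregates in every bin of Nodal. It stood at 89.8, 98.7, 113 and 222 CPM in BELA Epi cells and at 7.05, 32.9, 58.7 and 146 CPM in Epi cyst Epi cells. Lefty2 stood at 4.02, 7.79, 11.5 and 18.8 CPM in BELA Epi and 2.11, 10.2, 10.4 and 19.4 CPM in Epi cyst Epi cells. Gdf3 changed less, between 28.5 and 46.4 CPM in BELA Epi and between 24.9 and 46.5 CPM in Epi cyst Epi cells. Median depth before thinning lay between 77274.5 and 83932 UMIs over the BELA bins and between 60782 and 63310 over the Epi cyst bins.

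**Figure D4:**
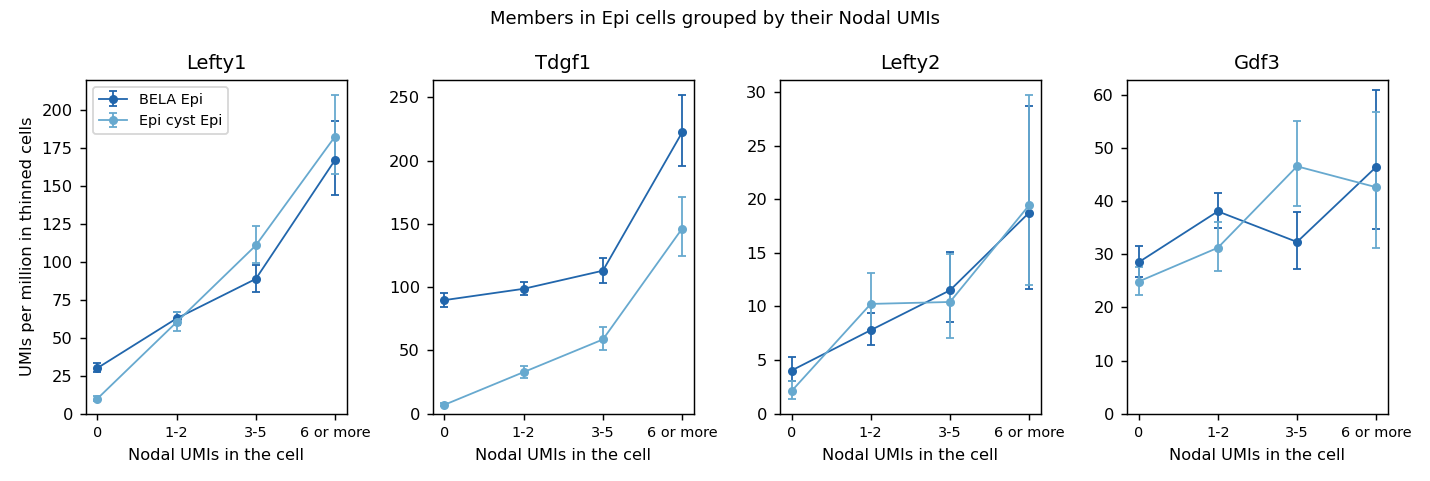
Lefty1, Lefty2, Tdgf1 and Gdf3 in CPM of thinned cells, for BELA Epi and Epi cyst Epi cells grouped by their Nodal UMIs (0, 1 to 2, 3 to 5, 6 or more), with exact Poisson 95% intervals as bars. Lefty1 is higher in each further bin in both groups, and Tdgf1 is lower in Epi cyst than in BELA Epi cells throughout, at 7.05 against 89.8 CPM in cells with no Nodal UMI.

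In Epi cysts the coupled genes were higher in cells with the primitive streak gene T (Brachyury). Among 157 T-positive and 435 T-negative thinned cells, Tdgf1 stood at 52.2 (46.7 to 58.2) and 16.8 (14.9 to 18.8) CPM and Nodal at 43.2 (38.2 to 48.6) and 25.2 (22.9 to 27.7) CPM. For Lefty1 the level was 63.4 CPM in T-positive cells (57.3 to 69.9) against 35.2 CPM in T-negative cells (32.5 to 38.1). For Lefty2 it was 8.76 CPM (6.60 to 11.4) against 4.94 CPM (3.95 to 6.10). All these intervals cover counting error only and leave out the spread between cells. The Fano factor in Epi cyst Epi cells was 19.2 for Lefty1, 5.69 for Lefty2, 6.43 for Tdgf1 and 4.31 for Nodal. Whether T-positive and T-negative cells differ beyond that spread was not tested. T had 0.347 CPM in BELA Epi cells and 19.6 CPM in Epi cyst Epi cells. Nodal, Tdgf1 and the Lefty genes were thus also present in Epi cyst cells without a T UMI.

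Within the VE layer of BELAs, Nodal was highest in cells with AVE transcription factors. The 514 thinned cells were grouped by the summed UMIs of Otx2, Lhx1, Eomes and Gsc (0, 1 to 2, 3 to 9, and 10 or more), giving 191, 156, 98 and 69 cells. Nodal stood at 7.20, 12.7, 26.0 and 64.9 CPM in these bins. Cfc1 stood at 3.14, 7.05, 5.87 and 54.0 CPM and Lefty1 at 2.23, 4.49, 7.65 and 40.2 CPM. Nodal was higher in each bin, while Cfc1 and Lefty1 did not pass 7.65 CPM in all but the last. The 4 factors summed to 116 CPM in BELA VE and 111 CPM in BELA Epi cells. Of them, 3 were called higher and 1 lower in BELA VE than in BELA Epi cells. Bins of few factor UMIs may therefore hold UMIs from Epi cells or free RNA. The part of these in the rise of Nodal was not tested.

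The receptors were higher in each bin by smaller steps, with Acvr2b at 14.4, 15.2, 17.3 and 21.4 CPM and Acvr1b at 7.33, 8.01, 9.18 and 12.3 CPM. Tdgf1 and Pcsk6 were lowest in the last bin, with Tdgf1 at 2.62, 4.49, 9.18 and 0.725 CPM and Pcsk6 at 4.71, 3.85, 4.08 and 1.81 CPM. Furin lay between 13.7 and 16.6 CPM and Gdf3 between 0.524 and 2.17 CPM, and Lefty2 had 1, 1, 0 and 0 UMIs. Taken as a group, the cells richest in AVE factors thus held Nodal, Lefty1 and the co-receptor Cfc1, with 2 Tdgf1 UMIs in 69 cells. These are levels of the whole bin and do not show that single cells held all 3 genes. Over all BELA VE cells the r of Cfc1 with Lefty1 was 0.07. Lefty1 was found in 20% of Cfc1-positive and 12.7% of Cfc1-negative BELA VE cells. When the cells were grouped by Nodal itself (0, 1 to 2, and 3 or more UMIs, 328, 127 and 59 cells), Cfc1 stood at 4.19, 16.5 and 42.8 CPM and Lefty1 at 2.29, 14.2 and 35.6 CPM. In BELA VE cells Nodal stood at 39.2 CPM in 90 Cfc1-positive and 16.2 CPM in 424 Cfc1-negative cells, and in VE cyst VE cells at 0.987 CPM in 76 and 1.26 CPM in 397.

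**Figure D5:**
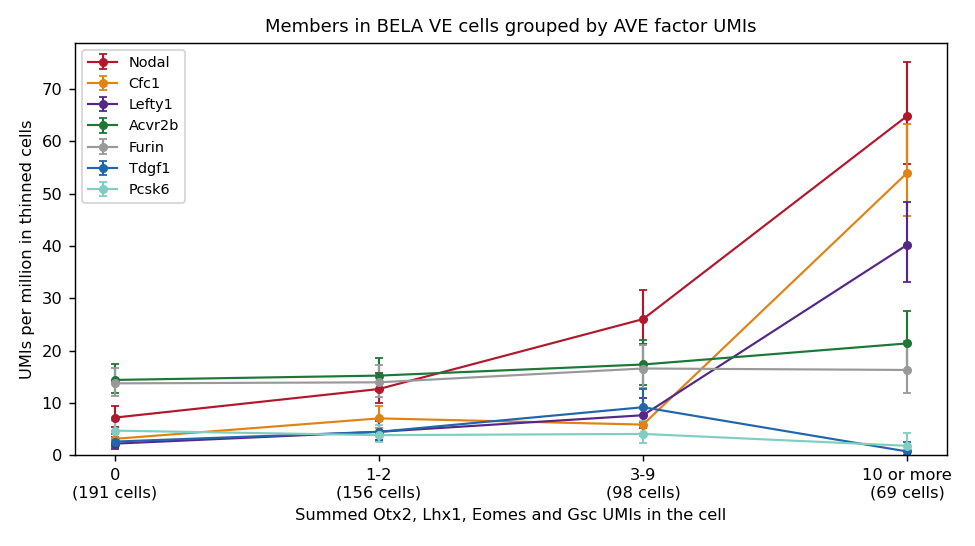
Nodal, Cfc1, Lefty1, Acvr2b, Furin, Tdgf1 and Pcsk6 in CPM of thinned BELA VE cells, grouped by the summed UMIs of Otx2, Lhx1, Eomes and Gsc in the cell, with exact Poisson 95% intervals as bars. Nodal is higher in each further bin up to 64.9 CPM, Cfc1 and Lefty1 are high in the last bin (54.0 and 40.2 CPM), and Furin and Tdgf1 are not.

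The genes whose pattern over cells was most like that of a member were ranked by mean r over the 20 rounds, among the 10185 to 10466 genes found in at least 10% of the cells of a group. In BELA Epi cells, Lefty1 was closest to Nodal (0.36), and the 5 closest also held the inhibitory SMAD gene Smad7 (0.19) and Pmepa1 (0.18), which encodes an inhibitor of SMAD signaling. In Epi cyst Epi cells Tdgf1 (0.47) and Lefty1 (0.41) were closest to Nodal, before Eomes, Nanog and Smad7. In BELA VE cells the 5 closest to Nodal were the growth factor gene Fgf5 (0.58), Irs4, the Wnt inhibitor gene Sfrp1, Fgf8 and Lhx1 (0.54).

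For Lefty1, the 5 closest genes held Nodal, Lefty2 and Pmepa1 in both Epi groups. Their mean r was 0.36, 0.28 and 0.27 in BELA Epi cells and 0.41, 0.48 and 0.41 in Epi cyst Epi cells.

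For Tdgf1, the closest genes differed between the Epi groups. In BELA Epi cells they were Dppa5a (0.32), Psme2, Rbpms2, Utf1 and Tcf15, whereas in Epi cyst Epi cells they included Nodal (0.47), Eomes, Nanog and Lefty1. Dppa5a and Utf1 are genes known from pluripotent cells, and Eomes is a T-box gene of the primitive streak. For Lefty2, the 5 closest held Lefty1, Tdgf1 and Nodal in both Epi groups, with Lefty1 at 0.28 in BELA Epi and 0.48 in Epi cyst Epi cells.

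Genes of the pathway outside the 10 were compared by the same 2-fold rule. Of all genes, 1.62% were higher and 2.93% lower in BELA VE than in VE cyst VE cells. For BELA Epi over Epi cyst Epi cells these shares were 1.25% and 1.34%. Of 7 further receptors and co-factors, none passed between BELA Epi and Epi cyst Epi cells, and 1 was lower in BELA VE than in VE cyst VE cells, the co-receptor Tgfbr3 (betaglycan) at 22.7 against 74.7 CPM. Of 5 signal transducers (Smad2, Smad3, Smad4, Foxh1 and Drap1), none passed in either comparison. Of 10 intracellular negative regulators, 1 was higher in BELA Epi cells, the inhibitory SMAD gene Smad7 at 39.6 against 13.8 CPM, and none passed in VE cells.

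Of 6 further secreted antagonists, 1 passed in each comparison, the activin-binding protein gene Fst (follistatin). It stood at 8.86 CPM in BELA Epi against 149 CPM in Epi cyst Epi cells, and at 13.0 CPM in BELA VE against 53.0 CPM in VE cyst VE cells. Cer1, an antagonist of Nodal known from the AVE, stood at 1.45 CPM in BELA VE cells and 0.0282 CPM (1 UMI) in VE cyst VE cells. Of 11 known Nodal target genes, 9 reached 5 CPM in BELA VE or VE cyst VE cells. Of these 9, 6 were higher and none lower in BELA VE cells, where 1.62% and 2.93% of all genes were. The median log2 ratio of the 11 was 1.22 beside -0.13 over all genes tested. In BELA Epi or Epi cyst Epi cells 7 of the 11 reached 5 CPM. Of these 7, 2 were higher and 2 lower in BELA Epi cells, where 1.25% and 1.34% of all genes were (median of the 11 -0.13 beside -0.04). The target list holds 4 AVE factors, all of which were among the 6 higher in BELA VE cells. These 4 were known from earlier results when the list was made.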

How the data were processed

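Cells of 3 libraries (10x Genomics 3′ v3.1) were analysed, 1 for each condition. UMI counts per gene and barcode were deposited unnormalized, as the authors obtained them with Cell Ranger 4.0.0 on mm10 (GENCODE vM23). Each library held 2220 (BELAs), 881 (VE cysts) or 1076 (Epi cysts) barcodes, and the study's filter (at least 4000 genes, at most 10% mitochondrial UMIs) kept 1410, 625 and 657 of them with 126625916, 39793263 and 40962566 UMIs.

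Groups followed the condition in the labels and the lineage rule of 4 against 4 markers. Levels are summed UMIs per 1000000 (CPM) with exact Poisson intervals, and ratios carry exact conditional intervals. Ratios were called at 2-fold after adding 5 CPM to both levels. One count in a group was worth 0.0139 to 0.232 CPM, and a count of 0 allows up to 3 counts. For shares, cells with at least 40000 UMIs were thinned to that number, which left out 28 BELA VE, 104 VE cyst VE, 4 VE cyst Epi, 67 BELA Epi and 64 Epi cyst Epi cells, and Clopper-Pearson intervals were used. Correlations and Fano factors are medians over 20 draws.

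Scrublet in scanpy 1.11.5 marked 31 BELA, 3 VE cyst and 14 Epi cyst cells as doublets (2.20%, 0.480% and 2.13%), which stayed in except in an alternative. The VE cyst share is low enough that the caller may have missed doublets there. Labels name no batch. Python 3.11.15, numpy 2.4.6, scipy 1.17.1 and pandas 2.3.3 were used. The call rule was tested on simulated data of the same groups, where it recovered all 200 of 200 changed genes in each of the 3 main comparisons. The changes set there were well past 2-fold, in genes well above the 5 CPM added, and with counting error only. Recovery was therefore near certain, and it does not show how the rule treats smaller changes or members of low level.

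All 10 members are named, other genes only as members of listed pathway groups or as the 5 genes with the highest correlation with Nodal, Lefty1, Lefty2 or Tdgf1, in BELA VE cells for Nodal and Lefty1 only. Some genes that this rule names are not reported here. Slc7a3 was chosen after its values were seen. The members and lists were chosen with earlier results of these data known. Alternatives were another number of CPM added, cell filters, lineage margin, scaling, mean of cells, thinning, doublets and low values. In an alternative, a count of members was taken as kept within 1.5 times, a correlation within 0.1 and a Fano factor within 1.5 times.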

Additional observations from a re-analysis of the deposited data

How the results depend on the processing

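Of 44 alternatives for the counts of members past 2-fold, for the r of Nodal with Lefty1 and for the Fano factor of Lefty1 in BELA Epi cells, 40 kept the result. The count for BELA VE over VE cyst VE, 2 as reported, was 5 with 1 CPM added (Gdf3, Lefty1 and Tdgf1 were gained), 0 with 20 CPM added, and 4 with totals that left out mitochondrial and ribosomal protein genes (Lefty1 and Tdgf1 were gained). The Fano factor was 6.48 when cells were thinned to 20000 UMIs, which lowers it by construction. The count for BELA Epi over Epi cyst Epi was 1 under every alternative run. That for BELA VE over BELA Epi stayed at 6 except for 4 with 20 CPM added and 5 among members with at least 10 CPM. Lefty1 passed 2-fold between BELA VE and VE cyst VE cells under 5 alternatives.

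Of the values for single genes and pairs, 457 were kept and 23 moved. No called value changed sign. Among uncalled ones, sign changed for the r of Nodal with Tdgf1 in BELA VE cells (0.08 as reported, lowest -0.05) and for the log2 ratios over VE cyst VE cells of Furin (-0.09 as reported, highest 0.01) and Lefty2 (0.01 as reported, lowest -0.02). Leaving out the BELA VE cells of over 10% Epi marker UMIs was added after seeing the data. It took the r of Tdgf1 with Lefty1 in BELA VE cells to 0.00 and the Fano factor of Tdgf1 to 1.11, against 2.43 without Scrublet doublets. No paired analysis was possible because each condition has 1 library. Differences between conditions have no replicate check, and clone, medium, matrix and library cannot be told apart. VE cyst Epi values rest on 48 cells, and genes under 5 CPM cannot be called.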
